A study of Arabidopsis thaliana with 24 samples.

Results

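The genes described here are 72 loci of *Arabidopsis thaliana* whose transcripts were less abundant in *stop1* than in wild-type roots in every one of 6 media. They were chosen by the measured values themselves. The mean of log2(CPM + 1) over the 2 libraries of a condition was taken, and a gene was kept when the *stop1* mean lay at least 0.5 below the wild-type mean in each medium. CPM is the read count of a gene scaled by the authors to the size of its library, with a normalization factor for each library (TMM). Of the 20450 genes in the deposited table, 72 met this rule (0.352%), while 22 genes met its mirror image and were at least 0.5 higher in *stop1* in every medium. Because the genotype differences selected the genes, those differences are given below as a description with no test. Only the responses to the media within a genotype were tested, gene by gene. The rule did not use these contrasts, but it used the same 24 libraries, so counts of calls over the 72 genes are a description.

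SENSITIVE TO PROTON RHIZOTOXICITY 1 (STOP1) is a zinc finger transcription factor that roots need to withstand protons and aluminum. Its best known target, *ALMT1*, encodes a channel through which root cells release malate, an organic acid that chelates aluminum ions outside the cell. The protein is controlled mainly after translation, through its accumulation in the nucleus and its removal by F-box proteins such as RAE1, and STOP2 is a close homologue.

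Wild-type seedlings were Col-0 (CS70000), and *stop1* was the T-DNA line SALK_114108 in the same background, so the mutant genotype rests on a single insertion line. Seedlings 5 days after germination spent 16 h in liquid medium, and RNA came from pooled root sections that included the tip. The 6 media were +Pi_pH6 (1 mM phosphate, pH 6, the control), -Pi_pH6 (0 mM phosphate, pH 6), +Pi_pH5 (1 mM phosphate, pH 5), -Pi_pH5 (0 mM phosphate, pH 5), +Al (0 mM phosphate, pH 5, with AlCl3 at 100 µM according to the sample labels) and ++Fe (0.1 mM phosphate, pH 5, with 0.1 mM FeSO4). The methods of the study give a higher AlCl3 concentration than the labels, so the dose is uncertain. Each genotype was sampled in each medium with 2 biological replicates. The +Al and ++Fe media therefore differ from +Pi_pH6 in pH and phosphate as well, and +Al differs from -Pi_pH5 in aluminum alone. In RNA from whole root sections, fewer cells of a type and less RNA per cell cannot be told apart.

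The libraries held from 17027929 to 30516150 reads on genes, so that 1 read was worth 0.0326 to 0.0572 CPM. Lists of 43 genes with symbols typical of photosynthesis genes, 23 markers of root cell types and 12 phosphate starvation genes were looked up. None of these genes was among the 72. The 43 genes were picked by the first letters of their symbols and took in *PSAT* and *PSAT1*, which are not photosynthesis genes. The sum of the 43 genes ran from 384 to 2097 CPM in wild-type libraries and from 359.6 to 894 CPM in *stop1* libraries. Its highest value was in +Pi_pH5 replicate 2 of wild-type. The median sum was 489.5 CPM in wild-type and 440.9 CPM in *stop1*, and *PSAT* alone had medians of 203 and 213 CPM. The sum is therefore only a partial sign of shoot tissue. The labels of *stop1* +Pi_pH6 and *stop1* +Pi_pH5 have been in doubt in earlier work on these data. Values of single genes and the joint calls of both genotypes use the labels as deposited. The number of genes that met the rule and the *stop1* counts of calls were also recomputed with these labels exchanged. The genes that met the rule then numbered 68, of which 58 belonged to the 72.

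Upstream sequences are shown for 4 of the genes, because they stand for the patterns described below. *STOP2* and *CIPK23* differed strongly between the genotypes in every medium, while wild-type *ALMT1* and *PGIP1* also varied strongly between media. The 250 bases before each annotated start were read from TAIR10.1, the build of the reference annotation, at chr5:7654836-7655085 on the reverse strand for *STOP2*, chr1:10654550-10654799 on the forward strand for *CIPK23*, chr1:2658352-2658601 on the forward strand for *ALMT1* and chr5:2132100-2132349 on the forward strand for *PGIP1*. Capitals mark matches, on either strand and with overlaps allowed, to GGN followed by any base except T and then by C or G, a consensus given for STOP1 binding.
STOP2: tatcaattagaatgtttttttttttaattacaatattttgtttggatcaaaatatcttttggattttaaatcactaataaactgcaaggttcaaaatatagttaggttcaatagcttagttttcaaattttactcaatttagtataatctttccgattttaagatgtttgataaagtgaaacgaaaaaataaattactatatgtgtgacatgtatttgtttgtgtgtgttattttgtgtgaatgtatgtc
CIPK23: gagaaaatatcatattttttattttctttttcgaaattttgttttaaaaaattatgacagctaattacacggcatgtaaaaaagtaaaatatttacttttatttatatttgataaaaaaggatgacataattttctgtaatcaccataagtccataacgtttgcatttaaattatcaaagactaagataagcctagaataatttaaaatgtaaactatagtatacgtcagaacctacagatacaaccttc
ALMT1: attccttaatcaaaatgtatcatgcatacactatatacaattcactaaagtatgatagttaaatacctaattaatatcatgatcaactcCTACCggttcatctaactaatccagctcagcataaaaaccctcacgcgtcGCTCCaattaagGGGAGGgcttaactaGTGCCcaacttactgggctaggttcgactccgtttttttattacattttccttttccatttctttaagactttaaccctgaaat
PGIP1: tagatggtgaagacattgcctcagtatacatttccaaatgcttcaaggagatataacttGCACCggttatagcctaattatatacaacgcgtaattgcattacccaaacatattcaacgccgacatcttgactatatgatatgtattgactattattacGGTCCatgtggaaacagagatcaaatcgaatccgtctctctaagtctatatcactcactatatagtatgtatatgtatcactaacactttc

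The window of *ALMT1* held 5 matches and that of *PGIP1* held 2, while the windows of *STOP2* and *CIPK23* held 0. The consensus is short and common. It occurred in 61 of the 72 windows (84.7%), beside 87.1% of the windows of all annotated genes in the table. CACGTG was present in 6.94% of the 72 windows and in 7.10% of all windows, GNATATNC in 6.94% and 5.43%, and TTGAC in 41.7% and 45.4%, each counted on both strands. The median GC content was 28.8% in the 72 windows and 31.2% over all windows. These matches describe letters within 250 bases only.

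*STOP1* itself was one of the 72 genes. It lies on chromosome 1 from 12550339 to 12552629 and overlaps the annotated gene AT1G06753 on the opposite strand. In wild-type its transcripts stood at 121 and 139.7 CPM under +Pi_pH6, 128 and 177 under -Pi_pH6, 135 and 128 under +Pi_pH5, 125 and 149 under -Pi_pH5, 108 and 135 under +Al and 136 and 123 under ++Fe. The *stop1* libraries held 37.8 and 43.5 CPM under +Pi_pH6, 36.5 and 28.8 under -Pi_pH6, 39.99 and 44.3 under +Pi_pH5, 46.6 and 57.8 under -Pi_pH5, 31.6 and 35.8 under +Al and 33.97 and 30.4 under ++Fe. Reads from the locus were thus fewer in all 12 *stop1* libraries but not absent, and the genotype groups did not overlap in any medium. Whether the remaining reads come from a complete transcript was not analysed here.

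The rule required a difference of -0.5, and most of the 72 genes lay well beyond it. Averaged over the 6 media, the *stop1* minus wild-type difference in log2(CPM + 1) ran from -5.07 for *STOP2* to -0.66 for AT4G14980, with a median of -1.41. It was -1 or lower for 59 genes, -2 or lower for 20 and -4 or lower for 5, which were *STOP2*, AT1G51830, *CIPK23*, AT1G33360 and *ALMT1*. The median difference of the 72 genes was -1.03 in +Pi_pH6, -1.15 in -Pi_pH6, -1.32 in +Pi_pH5, -1.38 in -Pi_pH5, -1.99 in +Al and -1.47 in ++Fe. For 48 of the genes the medium with the most negative difference was +Al. Over all genes of the table, the share at -0.5 or below was also highest there, at 11.4%, compared with 2.34% in +Pi_pH6, 5.07% in -Pi_pH6, 3.91% in +Pi_pH5, 3.34% in -Pi_pH5 and 4.18% in ++Fe. For the same contrasts, limma called 0.132% of all genes lower in *stop1* in +Pi_pH6, 0.342% in -Pi_pH6, 0.308% in +Pi_pH5, 0.347% in -Pi_pH5, 8.92% in +Al and 0.895% in ++Fe, at an adjusted p under 0.05. Since the rule used these contrasts, nothing is read from them for the 72 genes.

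**Figure D1:**
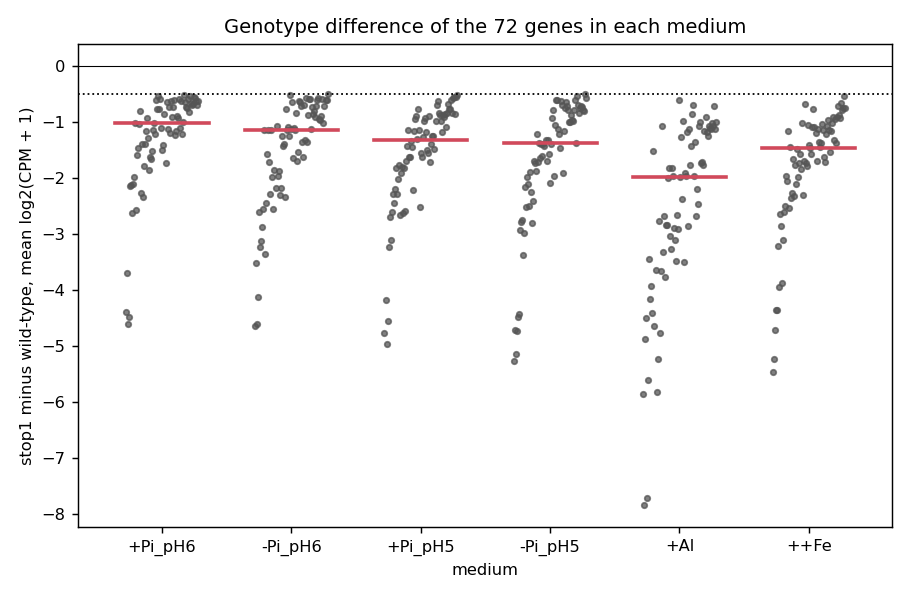
Difference between *stop1* and wild-type in mean log2(CPM + 1) for each of the 72 genes (points) in each of the 6 media, with the median of the genes as a red bar and the threshold of the rule as a dotted line. The median moves from -1.03 in +Pi_pH6 to -1.99 in +Al, and all points lie at or below -0.5 because the rule chose them so.

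Individual libraries followed the means in most cases. Both *stop1* libraries lay below both wild-type libraries for 65 of the 72 genes in +Pi_pH6, 68 in -Pi_pH6, 69 in +Pi_pH5, 70 in -Pi_pH5, 70 in +Al and 72 in ++Fe. The same order held for 19.0%, 21.5%, 22.2%, 22.8%, 29.9% and 18.2% of all genes in those media. In 60 of the 72 genes the genotypes did not overlap in any medium (0.983% of all genes), and in 29 genes every wild-type library lay above every *stop1* library whatever the medium (39 genes or 0.191% of the table). The 12 genes with an overlap in at least 1 medium were AT2G14247, AT4G10265, *SRO4*, AT1G33055, AT4G10270, AT4G24350, *HRA1*, AT4G24110, AT3G20395, *LAC7*, *PCO2* and AT3G47675.

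Genes close to the threshold showed similar differences on both sides of it in the medium where each was least negative. In other media some lay much lower, down to -1.73 for *NADP-ME2*, -1.85 for AT3G04530 and -2.46 for AT3G13760. Just inside were AT4G14980, a C1 domain protein, with a smallest decrease of -0.502 in -Pi_pH6, AT3G47675 with -0.506 in -Pi_pH5, and *NADP-ME2*, a malic enzyme, with -0.517 in +Pi_pH6. Just outside were AT3G13760 with -0.497 and AT1G32450 with -0.495, both in +Pi_pH5, and AT3G04530 with -0.475 in +Pi_pH6. Membership of genes at this edge therefore turned on differences of a few hundredths on the log2 scale.

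The levels of the 72 genes entered the rule and are given as a description. Their median wild-type level was 29.8 CPM in +Pi_pH6, 33.3 in -Pi_pH6, 39.9 in +Pi_pH5, 42.0 in -Pi_pH5, 53.4 in +Al and 31.2 in ++Fe. In *stop1* the corresponding medians were 10.9, 10.5, 10.0, 10.7, 6.23 and 7.37 CPM. The median over all genes of the table lay between 17.1 and 17.9 CPM in every condition. CPM is not corrected for transcript length, so these medians order reads and not molecules. A gene with very few reads can hardly meet a rule on log2(CPM + 1), and 8 of the 72 genes had a mean wild-type level under 5 CPM.

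Among the regulators, *STOP2* had the most negative mean difference of the 72 genes. It encodes a zinc finger protein closely related to STOP1 and lies on chromosome 5 from 7653257 to 7654835. Wild-type libraries held 28.9 and 25.1 CPM under +Pi_pH6, 34.98 and 32.02 under -Pi_pH6, 33.9 and 31.7 under +Pi_pH5, 40.9 and 45.4 under -Pi_pH5, 50.4 and 64.7 under +Al and 53.7 and 43.1 under ++Fe. The *stop1* libraries held 0.606 and 0.103 CPM under +Pi_pH6, 0.301 and 0.445 under -Pi_pH6, 0.343 and 0.158 under +Pi_pH5, 0.239 and 0.0462 under -Pi_pH5, 0 and 0 under +Al and 0 and 0.224 under ++Fe. All *stop1* libraries were below 1 CPM, and in +Al neither of them had a single read. Taking 3 reads per library as the floor, *STOP2* was at least 406-fold higher in wild-type than in *stop1* in +Al. In wild-type *STOP2* rose in +Al (log2 fold change 1.06 ± 0.19, adjusted p = 0.0014) and in ++Fe (0.81 ± 0.19, adjusted p = 0.0051), by limma against +Pi_pH6.

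*CIPK23*, on chromosome 1 from 10654800 to 10658924, encodes a calcium-sensor interacting protein kinase known to activate the potassium channel AKT1. Its wild-type levels were 129 and 134 CPM under +Pi_pH6, 137 and 154 under -Pi_pH6, 145 and 146 under +Pi_pH5, 143 and 167 under -Pi_pH5, 162 and 154 under +Al and 149.5 and 100.5 under ++Fe. In *stop1* they were 4.52 and 4.36 CPM under +Pi_pH6, 5.47 and 4.63 under -Pi_pH6, 3.20 and 4.26 under +Pi_pH5, 3.78 and 3.05 under -Pi_pH5, 4.31 and 4.56 under +Al and 3.66 and 3.75 under ++Fe. The gene varied little over the media in either genotype, and no treatment passed the test in either of them. In +Al, for example, the log2 fold change was 0.26 ± 0.16 (adjusted p = 0.39) in wild-type and 0.00 ± 0.16 (adjusted p = 1) in *stop1*. Its neighbour AT1G30260, annotated as a galactosyltransferase family protein and 2970 bp away on the same strand, was also one of the 72 genes, at a mean difference of -0.86.

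AT1G33360, annotated as the ATP-dependent Clp protease subunit ClpX3, behaved like *CIPK23*. Wild-type libraries ran from 23.7 through a median of 33.6 to 41.6 CPM and *stop1* libraries from 0.205 through a median of 0.551 to 1.05 CPM, and it was not called under any treatment in either genotype (0.17 ± 0.23, adjusted p = 0.77 in wild-type +Al). This gene lies 453852 bp from *STOP1* on the same chromosome, and AT1G33055 lies 577758 bp away. These were the only 2 of the 72 genes besides *STOP1* among the 214 genes of the table within 1000000 bp of it. Whether the T-DNA line differs from Col-0 at other loci on this chromosome was not tested.

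*ALMT1*, the aluminum-activated malate transporter on chromosome 1 from 2658602 to 2661310, varied widely over the media in wild-type. Its wild-type levels were 5.92 and 3.36 CPM under +Pi_pH6, 6.81 and 5.09 under -Pi_pH6, 8.74 and 9.39 under +Pi_pH5, 23.1 and 21.6 under -Pi_pH5, 243 and 187 under +Al and 23.4 and 16.96 under ++Fe. In *stop1* they were 0.275 and 0.205 CPM under +Pi_pH6, 0.0502 and 0.222 under -Pi_pH6, 0 and 0.158 under +Pi_pH5, 0.0957 and 0 under -Pi_pH5, 0.0459 and 0 under +Al and 0 and 0.056 under ++Fe, which is between 0 and 6 reads per library. Wild-type *ALMT1* rose in -Pi_pH5 (log2 fold change 2.09 ± 0.21, adjusted p = 4.9e-05), in ++Fe (1.93 ± 0.21, adjusted p = 6.7e-06) and in +Al (5.29 ± 0.21, adjusted p = 7.4e-11). It also rose when +Al was set against -Pi_pH5, the medium of equal pH and phosphate (3.20 ± 0.21, adjusted p = 1.1e-07). The *stop1* level stayed near the limit of detection, with at most 3 reads in any library of +Pi_pH5, -Pi_pH5, +Al and ++Fe, so a response could not have been resolved in those media. The genotype difference in log2(CPM + 1) accordingly went from -2.15 in +Pi_pH6 to -7.71 in +Al.

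*PGIP1* encodes a polygalacturonase inhibiting protein, which protects cell wall pectin, and lies on chromosome 5 from 2132350 to 2133587. Wild-type libraries held 25.1 and 30.3 CPM under +Pi_pH6, 29.7 and 49.1 under -Pi_pH6, 44.1 and 51.2 under +Pi_pH5, 67.4 and 94.3 under -Pi_pH5, 245 and 579.6 under +Al and 253 and 158 under ++Fe. The *stop1* libraries held 3.91 and 3.38 CPM under +Pi_pH6, 2.96 and 4.08 under -Pi_pH6, 4.69 and 4.62 under +Pi_pH5, 7.28 and 12.7 under -Pi_pH5, 36.1 and 31.01 under +Al and 9.67 and 14.96 under ++Fe. Both genotypes reached their highest or near highest levels in +Al, but *stop1* remained below wild-type throughout. The rise in +Al was 3.72 ± 0.35 (adjusted p = 2.5e-06) in wild-type and 2.89 ± 0.35 (adjusted p = 5.4e-06) in *stop1*, in log2 units. In ++Fe it was 2.81 ± 0.35 (adjusted p = 2.3e-05) and 1.49 ± 0.35 (adjusted p = 0.0066). The 2 wild-type +Al libraries lay far apart, at 245 and 579.6 CPM.

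*DGR2*, a gene for a DUF642 cell wall protein on chromosome 5 from 8863224 to 8865677, had the smallest p of the 72 genes in all 6 wild-type contrasts. Its wild-type levels were 64.1 and 72.8 CPM under +Pi_pH6, 124 and 113 under -Pi_pH6, 151 and 165 under +Pi_pH5, 232 and 244 under -Pi_pH5, 1174 and 1292 under +Al and 209 and 197 under ++Fe. In *stop1* they were 36.3 and 41.1 CPM under +Pi_pH6, 35.2 and 35.6 under -Pi_pH6, 47.1 and 43.9 under +Pi_pH5, 52.9 and 55.3 under -Pi_pH5, 28.9 and 34.5 under +Al and 49.3 and 47.1 under ++Fe. The wild-type groups did not overlap between +Pi_pH6 and any other medium, whereas all *stop1* libraries lay between 28.9 and 55.3 CPM. In wild-type the log2 fold change was 0.78 ± 0.11 (adjusted p = 0.0015) in -Pi_pH6, 1.20 ± 0.11 (adjusted p = 6.3e-05) in +Pi_pH5 and 1.78 ± 0.11 (adjusted p = 1.3e-07) in -Pi_pH5. It reached 4.15 ± 0.11 (adjusted p = 1.2e-13) in +Al and 1.56 ± 0.11 (adjusted p = 4.3e-08) in ++Fe. In *stop1* the same gene rose slightly in -Pi_pH5 (0.48 ± 0.11, adjusted p = 0.032) and fell slightly in +Al (-0.28 ± 0.11, adjusted p = 0.049). *DGR2* overlaps AT5G03985 and AT5G25470 on the opposite strand. Its homologue *DGR1* was also one of the 72 genes, with wild-type libraries from 137 through a median of 188 to 245 CPM and *stop1* libraries from 51.2 through a median of 72.2 to 141 CPM.

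**Figure D2:**
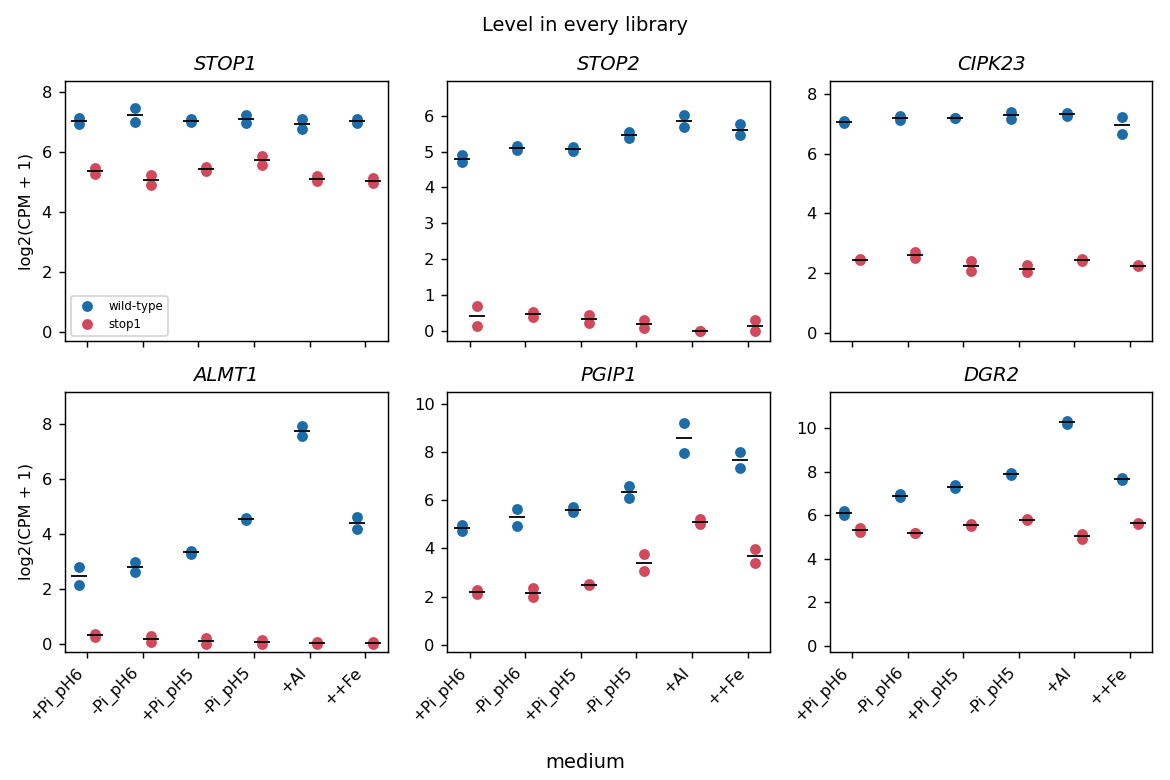
Level of 6 leading genes as log2(CPM + 1) for each wild-type (blue) and *stop1* (red) library in the 6 media, with points for libraries and dashes for the mean of 2 libraries. *CIPK23* is flat over the media in both genotypes, while wild-type *ALMT1* climbs from 3.36 to 243 CPM and wild-type *DGR2* from 64.1 to 1292 CPM, with *stop1* low in every medium.

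A further 2 genes of the set are linked to STOP1 in the literature. *GDH1*, a glutamate dehydrogenase of nitrogen and carbon metabolism, ranged from 42.9 through a median of 56.004 to 179.7 CPM in wild-type and from 22.1 through a median of 27.5 to 44.6 CPM in *stop1*, and rose in wild-type +Al by a log2 fold change of 1.92 ± 0.11 (adjusted p = 1.2e-08). In *stop1* the change of *GDH1* was -0.31 ± 0.11 (adjusted p = 0.035) in +Al and 0.65 ± 0.11 (adjusted p = 4.6e-04) in ++Fe. *RAE1*, whose F-box protein targets STOP1 for degradation, ranged from 47.2 through a median of 58.9 to 167 CPM in wild-type and from 15.5 through a median of 26.3 to 31.5 CPM in *stop1*. It rose in wild-type +Al (1.61 ± 0.16, adjusted p = 5.7e-06), and fell in *stop1* ++Fe (-0.78 ± 0.16, adjusted p = 0.0029). AT5G27920, another F-box family gene, had levels from 40.3 through a median of 48.6 to 101 CPM in wild-type and from 6.84 through a median of 8.08 to 16.6 CPM in *stop1*. It rose in wild-type +Al (1.21 ± 0.11, adjusted p = 2.2e-06) but fell in *stop1* in +Pi_pH5 (-0.85 ± 0.11, adjusted p = 0.0069), -Pi_pH5, +Al and ++Fe (-0.83 ± 0.11, adjusted p = 5.7e-05). These falls share the same *stop1* +Pi_pH6 control libraries, whose label is in doubt. The *stop1* means of AT5G27920 were 14.6 CPM in +Pi_pH6, 15.3 in -Pi_pH6, 7.68 in +Pi_pH5, 8.35 in -Pi_pH5, 6.98 in +Al and 7.81 in ++Fe.

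Of a literature list of 16 genes tied to STOP1, 15 were in the table used and 8 belonged to the 72, namely *STOP1*, *STOP2*, *ALMT1*, *PGIP1*, *GDH1*, *CIPK23*, *RAE1* and *DGR2*. This list was drawn up with earlier results of these data known and is no independent evidence of a direction. The other 7 met the threshold in some media only. *TDT*, the vacuolar malate transporter, and *GABA-T* reached it in 5 media, *ALS3* and *MATE*, which serve aluminum tolerance, in 3, *HAK5* in 2 (it was at least 0.5 higher in *stop1* in the other 4), and *GDH2* and *SULTR3;5* in 1. In wild-type, 12 of the 15 genes rose and 0 fell in +Al, beside 4.09% and 4.37% of all genes. Rises in wild-type numbered 5 in -Pi_pH5 (0.474% of all genes) and 9 in ++Fe (12.3% of all genes). In *stop1* +Al, 3 rose and 5 fell, beside 18% and 19.4% of all genes. In *stop1* ++Fe, 3 rose and 2 fell, beside 9.16% and 5.59% of all genes. The 12 phosphate starvation genes, none of which was among the 72, gave 6 increases in wild-type and 7 in *stop1* in -Pi_pH6. Over all genes, 0.142% rose there in wild-type and 0.474% in *stop1*.

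Transport was the role of several more genes. *ABCB15*, an ABC transporter, ranged from 16.7 through a median of 41.7 to 68.2 CPM in wild-type and from 0.728 through a median of 6.94 to 14.1 CPM in *stop1*, and changed by 1.40 ± 0.31 (adjusted p = 0.0075) in wild-type +Al and by -1.66 ± 0.31 (adjusted p = 4.1e-04) in *stop1* +Al. AT4G00910, of the same family as *ALMT1*, ranged from 12.1 through a median of 26.4 to 42.6 CPM in wild-type and from 3.11 through a median of 5.74 to 13.1 CPM in *stop1*. It fell in wild-type ++Fe (-1.12 ± 0.23, adjusted p = 0.0023) and in *stop1* -Pi_pH6 (-1.13 ± 0.23, adjusted p = 0.021), a pattern opposite to that of *ALMT1* in ++Fe. *SLAH1*, a homologue of the anion channel SLAC1, ranged from 5.91 through a median of 13.7 to 30.4 CPM in wild-type and from 0.321 through a median of 4.63 to 6.74 CPM in *stop1*. It fell in +Al in both genotypes, with log2 fold changes of -1.47 ± 0.28 (adjusted p = 0.0024) in wild-type and -2.46 ± 0.28 (adjusted p = 2.9e-06) in *stop1*. The related *SLAH3* differed less, with wild-type libraries from 59.3 through a median of 72.7 to 91.1 CPM and *stop1* libraries from 30.7 through a median of 41.9 to 49.96 CPM, and its lowest wild-type library still exceeded its highest *stop1* library.

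Metal uptake was represented by *FRO4* and *NRAMP1*. *FRO4*, a ferric-chelate reductase, had wild-type levels of 18.3 and 19.5 CPM under +Pi_pH6, 27.4 and 9.79 under -Pi_pH6, 8.36 and 6.33 under +Pi_pH5, 10.5 and 4.32 under -Pi_pH5, 8.64 and 3.82 under +Al and 0.602 and 2.94 under ++Fe. In *stop1* the levels were 2.53 and 3.85 CPM under +Pi_pH6, 2.31 and 2.85 under -Pi_pH6, 0.114 and 0.525 under +Pi_pH5, 0.383 and 0.369 under -Pi_pH5, 0 and 0 under +Al and 0.0871 and 0.168 under ++Fe. Wild-type *FRO4* fell in +Al (-1.54 ± 0.45, adjusted p = 0.043) and in ++Fe (-2.99 ± 0.45, adjusted p = 1.6e-04), and *stop1* libraries in +Al had 0 reads, which placed wild-type at least 44.0-fold higher. *FRO4* shares 5.60% of its 50-base stretches with other loci. *NRAMP1*, a manganese and iron transporter, ranged from 87.3 through a median of 135 to 175 CPM in wild-type and from 41.9 through a median of 78.3 to 90.7 CPM in *stop1*, and fell in *stop1* +Al (-0.91 ± 0.19, adjusted p = 0.001). AT2G16660, of the major facilitator superfamily, ranged from 38.8 through a median of 69.4 to 131 CPM in wild-type and from 8.78 through a median of 25.8 to 75.8 CPM in *stop1*. It fell in *stop1* in all 5 treatments, for example with -1.26 ± 0.22 (adjusted p = 0.0068) in -Pi_pH6 and -2.02 ± 0.22 (adjusted p = 2.2e-04) in -Pi_pH5, and in wild-type in ++Fe (-1.38 ± 0.22, adjusted p = 2.7e-04). Each of these *stop1* contrasts shares the same 2 control libraries, in which AT2G16660 stood at 75.8 and 75.7 CPM. The label of these libraries is in doubt, as stated above, and the mean of *stop1* +Pi_pH5 was 26.5 CPM.

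Malate is also handled by *NADP-ME2* and *PCK1*, enzymes of malate and phosphoenolpyruvate metabolism. *NADP-ME2* was the most abundant of the set in wild-type by CPM, from 540.4 through a median of 709 to 1483 CPM, and ranged from 289 through a median of 366 to 419 CPM in *stop1*. It rose in wild-type +Al (1.25 ± 0.16, adjusted p = 6.2e-05), and was not called in *stop1* +Al (0.03 ± 0.16, adjusted p = 0.89). *PCK1* ranged from 395 through a median of 487 to 731 CPM in wild-type and from 201 through a median of 297 to 327 CPM in *stop1*, so that every wild-type library lay above every *stop1* library. Its change in wild-type +Al was 0.69 ± 0.20 (adjusted p = 0.044).

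By a match of words in the descriptions, kinases and receptor-like proteins formed the largest named group. It held 8 of 72 genes (11.1%, against 6.15% of all annotated genes in the table), one of them *PCK1* through the word kinase in its name. The order of the groups depends on the words used. AT1G51830, AT1G51840 and AT1G51850 are neighbours on chromosome 1, 3246 and 1947 bp apart, and encode leucine-rich repeat or related kinases. AT1G51830 held in wild-type 65.3 and 63.6 CPM under +Pi_pH6, 78.7 and 83.7 under -Pi_pH6, 103 and 97.4 under +Pi_pH5, 130.5 and 149 under -Pi_pH5, 379 and 459.9 under +Al and 122 and 91.9 under ++Fe. In *stop1* it held 3.85 and 4.21 CPM under +Pi_pH6, 6.68 and 5.74 under -Pi_pH6, 4.98 and 4.20 under +Pi_pH5, 5.65 and 3.32 under -Pi_pH5, 1.33 and 0.437 under +Al and 1.66 and 2.02 under ++Fe. The wild-type +Al libraries were the highest and the *stop1* +Al libraries the lowest of the 24, and the genotype difference was -7.84 there, the most negative single value of the set. AT1G51830 rose in wild-type +Al (2.68 ± 0.21, adjusted p = 3.7e-07) and fell in *stop1* +Al (-1.46 ± 0.21, adjusted p = 3.8e-05). AT1G51840 ranged from 4.78 through a median of 13.2 to 58.2 CPM in wild-type and from 0 through a median of 0.333 to 1.26 CPM in *stop1*, and rose in wild-type +Al (2.94 ± 0.25, adjusted p = 6.8e-07). AT1G51850 ranged from 44.3 through a median of 58.3 to 82.8 CPM in wild-type and from 10.7 through a median of 33.03 to 43.8 CPM in *stop1*, and it fell in *stop1* +Al (-1.58 ± 0.14, adjusted p = 1.5e-07).

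A second pair of kinase-like neighbours, AT3G46270 and AT3G46280, lies on chromosome 3 with a gap of 1078 bp. AT3G46270 ranged from 1.71 through a median of 15.3 to 20.5 CPM in wild-type and from 0.367 through a median of 2.66 to 3.94 CPM in *stop1*, and fell in wild-type ++Fe (-2.35 ± 0.29, adjusted p = 2.3e-05). It shares 31.7% of its 50-base stretches with other loci, so its reads are uncertain. AT3G46280 ranged from 64.3 through a median of 83.2 to 109 CPM in wild-type and from 7.66 through a median of 30.7 to 34.9 CPM in *stop1*. AT1G07550, another leucine-rich repeat kinase, was scarce, with libraries from 1.90 through a median of 5.68 to 8.70 CPM in wild-type and from 0 through a median of 0.568 to 2.52 CPM in *stop1*, and fell in -Pi_pH5 in both genotypes (in wild-type -1.06 ± 0.25, adjusted p = 0.042). Among all 72 genes, 9 pairs lay within 20000 bp of each other, including AT4G01380 and AT4G01390 with 123 bp between them, AT4G10265 and AT4G10270 with 1066 bp, AT1G13500 and AT1G13540 with 6293 bp, AT3G47675 and *SRO4* with 12979 bp, and *FRO4* and *SLAH3* with 16986 bp.

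Of the 9 genes that rose in *stop1* +Al, 7 rose in wild-type +Al as well, and *MLO6*, AT3G16530, AT2G41380 and AT5G38200 are described next. *MLO6*, of a membrane protein family known from powdery mildew susceptibility in barley, held in wild-type 23.7 and 20.8 CPM under +Pi_pH6, 24.5 and 25.1 under -Pi_pH6, 33.2 and 30.2 under +Pi_pH5, 35.1 and 33.3 under -Pi_pH5, 109 and 158 under +Al and 152 and 103 under ++Fe. In *stop1* it held 6.72 and 4.82 CPM under +Pi_pH6, 3.51 and 3.26 under -Pi_pH6, 4.005 and 4.57 under +Pi_pH5, 3.45 and 4.66 under -Pi_pH5, 65.3 and 58.3 under +Al and 20.5 and 26.9 under ++Fe. Both +Al libraries of *stop1* exceeded every wild-type library outside +Al and ++Fe. The response in +Al was 2.51 ± 0.20 (adjusted p = 4.1e-07) in wild-type and 3.23 ± 0.20 (adjusted p = 3.9e-09) in *stop1*, and in ++Fe it was 2.44 ± 0.20 (adjusted p = 3.5e-07) and 1.87 ± 0.20 (adjusted p = 7.2e-06).

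AT3G16530, a legume lectin family gene, held in wild-type 3.52 and 2.29 CPM under +Pi_pH6, 3.16 and 1.64 under -Pi_pH6, 10.15 and 7.30 under +Pi_pH5, 15.9 and 10.96 under -Pi_pH5, 167 and 157 under +Al and 141 and 62.3 under ++Fe. In *stop1* it held 1.60 and 0.41 CPM under +Pi_pH6, 0.502 and 0.482 under -Pi_pH6, 0.915 and 0.63 under +Pi_pH5, 0.527 and 0.231 under -Pi_pH5, 8.26 and 5.29 under +Al and 7.36 and 4.03 under ++Fe. It was scarce at pH 6 in both genotypes and highest in +Al and ++Fe in both. Its log2 fold change in +Al, 5.40 ± 0.37 (adjusted p = 7.2e-08), was the greatest of the 72 genes in wild-type, and in *stop1* it was 2.00 ± 0.37 (adjusted p = 3.9e-04). AT2G41380, a methyltransferase family gene, ranged from 19.8 through a median of 52.4 to 189.5 CPM in wild-type and from 2.91 through a median of 6.87 to 19.2 CPM in *stop1*. It rose in +Al and ++Fe in both genotypes, by 2.71 ± 0.24 (adjusted p = 1.3e-06) in wild-type +Al and 1.75 ± 0.24 (adjusted p = 6.5e-05) in *stop1* ++Fe. AT5G38200, annotated as a class I glutamine amidotransferase-like protein, ranged from 11.5 through a median of 24.8 to 99.9 CPM in wild-type and from 1.87 through a median of 3.50 to 7.43 CPM in *stop1*, and rose in +Al in both, by 2.74 ± 0.30 (adjusted p = 1.1e-05) and 0.80 ± 0.30 (adjusted p = 0.042).

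AT4G01390, a TRAF-like family gene, rose in *stop1* +Al and not in wild-type +Al. It held in wild-type 43.6 and 50.2 CPM under +Pi_pH6, 41.7 and 28.7 under -Pi_pH6, 54.5 and 39.4 under +Pi_pH5, 60.97 and 52.95 under -Pi_pH5, 67.9 and 74.02 under +Al and 30.1 and 29.6 under ++Fe. In *stop1* it held 4.13 and 11.5 CPM under +Pi_pH6, 2.86 and 2.11 under -Pi_pH6, 7.67 and 11.2 under +Pi_pH5, 6.37 and 6.28 under -Pi_pH5, 26.6 and 21.99 under +Al and 1.70 and 3.75 under ++Fe. Its log2 fold change was 1.65 ± 0.32 (adjusted p = 6.6e-04) in *stop1* +Al and 0.59 ± 0.32 (adjusted p = 0.33) in wild-type +Al, and it fell in *stop1* ++Fe (-1.16 ± 0.32, adjusted p = 0.021). Its neighbour AT4G01380, a plastocyanin-like gene, also rose in *stop1* +Al (1.03 ± 0.26, adjusted p = 0.0049).

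The mannose-binding lectin superfamily genes AT1G52070 and AT5G35940 fell in *stop1* +Al. AT1G52070 held in wild-type 471 and 457 CPM under +Pi_pH6, 619 and 484 under -Pi_pH6, 533 and 872 under +Pi_pH5, 734 and 819.7 under -Pi_pH5, 746 and 321 under +Al and 601 and 579.9 under ++Fe. In *stop1* it held 229 and 223 CPM under +Pi_pH6, 245 and 252 under -Pi_pH6, 202 and 138 under +Pi_pH5, 220.1 and 174 under -Pi_pH5, 8.12 and 7.23 under +Al and 169 and 135 under ++Fe. Its *stop1* +Al libraries were the lowest of the 24 by a wide margin, and its fall in *stop1* +Al (-4.71 ± 0.29, adjusted p = 3.6e-09) had the smallest p of the 72 genes in that contrast, while wild-type +Al gave 0.08 ± 0.29 (adjusted p = 0.93). AT5G35940 ranged from 102 through a median of 341 to 488 CPM in wild-type and from 16.6 through a median of 90.9 to 189 CPM in *stop1*, and fell in +Al in both genotypes, with -1.69 ± 0.24 (adjusted p = 2.4e-04) in wild-type and -3.21 ± 0.24 (adjusted p = 3.5e-08) in *stop1*. AT4G25090, annotated only by its superfamily as a riboflavin synthase-like protein, fell in *stop1* +Al (-3.38 ± 0.21, adjusted p = 4.2e-09) and in wild-type ++Fe (-1.43 ± 0.21, adjusted p = 1.3e-04). AT3G61400, a 2-oxoglutarate-dependent oxygenase, fell in wild-type -Pi_pH5 (-1.67 ± 0.33, adjusted p = 0.017) and in *stop1* -Pi_pH5 (-2.49 ± 0.33, adjusted p = 0.0013).

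Of the remaining genes with the most negative differences, 3 were called in +Al in wild-type. AT4G30670, a putative membrane lipoprotein, ranged from 86.6 through a median of 175 to 265 CPM in wild-type and from 7.04 through a median of 43.1 to 67.5 CPM in *stop1*. AT5G02480, an HSP20-like chaperone gene, ranged from 103 through a median of 121 to 219 CPM in wild-type and from 20.05 through a median of 30.2 to 45.6 CPM in *stop1*. AT3G13950, an ankyrin gene, ranged from 0.867 through a median of 2.92 to 20.8 CPM in wild-type and from 0.0572 through a median of 0.21 to 0.359 CPM in *stop1*. In wild-type +Al they rose by 1.09, 0.97 and 2.75 in log2 units, and AT4G30670 and AT5G02480 fell in *stop1* +Al with values of -2.29 and -0.95. *LAC7*, a laccase, rose in ++Fe in both genotypes, by 1.59 ± 0.27 (adjusted p = 4.2e-04) in wild-type and 1.62 ± 0.27 (adjusted p = 3.9e-04) in *stop1*.

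Counted over the set, wild-type calls went mainly upward. The rule used the same libraries, so the shares of the 72 genes given here are a description. In wild-type +Al, 29 of the 72 genes rose (40.3%) and 4 fell (5.56%), compared with 4.09% and 4.37% of all genes. The split over all genes depended on the scaling, with 837 rises and 894 falls as deposited and 1060 and 712 when only library size was used. The median log2 fold change was 0.27 for the 72 genes and 0.00 over all genes. Led by *DGR2* and *ALMT1*, the rising genes included *GDH1*, *RAE1*, *PGIP1*, *STOP2*, *MLO6* and *NADP-ME2*, and the falling genes were AT5G35940, *SLAH1*, AT3G61400 and *FRO4*. When +Al was compared with -Pi_pH5, 20 rose (27.8%) and 2 fell (2.78%), beside 2.63% and 1.37% of all genes. The genes that fell there were AT5G35940 (-1.53 ± 0.24, adjusted p = 0.0012) and AT4G10270 (-2.16 ± 0.54, adjusted p = 0.032). With only the libraries of the compared conditions in the fit, these totals were 17 genes in +Al and 13 in +Al against -Pi_pH5, and the latter was 14 without -Pi_pH5 replicate 1.

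Wild-type ++Fe raised 18 genes (25%) and lowered 8 (11.1%), beside 12.3% and 9.38% of all genes, with a median of 0.01 against -0.01 over all genes, and the total was 16 without +Pi_pH6 replicate 2. In wild-type -Pi_pH5, 9 rose (12.5%) and 2 fell (2.78%), beside 0.474% and 0.963% of all genes, and the total was 4 with only the compared libraries in the fit. It was 3 without +Pi_pH6 replicate 2 or without -Pi_pH5 replicate 2 of wild-type, and 4 without -Pi_pH5 replicate 1. The single changes of pH or phosphate called only *DGR2*. In wild-type -Pi_pH6, 1 gene rose and 0 fell, beside 0.142% and 0.0244% of all genes. In wild-type +Pi_pH5, 1 rose and 0 fell, beside 0.00489% and 0.0244%. At an unadjusted p under 0.05, limma gave 3 rises and 3 falls in -Pi_pH6 (2.76% and 2.49% of all genes) and 13 and 6 in +Pi_pH5 (3.75% and 2.58% of all genes), while edgeR's likelihood ratio test and DESeq2 each called 2 genes in -Pi_pH6, 1 of them a fall, and 3 in +Pi_pH5, 0 of them a fall. With only the compared libraries in the fit, 0 genes were called in either medium.

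In *stop1* the calls went mainly downward, again as a description because the rule used these libraries. In *stop1* +Al, 9 genes rose (12.5%) and 33 fell (45.8%), compared with 18% and 19.4% of all genes, and the median was -0.59 against -0.02 over all genes. Against -Pi_pH5, 5 rose (6.94%) and 25 fell (34.7%), beside 15.4% and 15.6%. The falls with the smallest p were those of AT1G52070 (-4.50 ± 0.29, adjusted p = 8.4e-09) and AT4G25090 (-2.62 ± 0.21, adjusted p = 1.1e-07), and *STOP1* itself fell there (-0.61 ± 0.17, adjusted p = 0.0096). Root hair and root cap markers moved in the same libraries. The 5 root hair markers summed to 211 and 181 CPM in *stop1* +Al and to 684 and 607 CPM in *stop1* +Pi_pH6, and the 3 root cap markers to 13.4 and 14.9 CPM and to 30.6 and 29.1 CPM. The corresponding sums in wild-type +Al were 843 and 403 CPM for root hair and 33.4 and 19.7 CPM for root cap. As mean sums in *stop1* +Al and *stop1* +Pi_pH6, endodermis markers held 186 and 252 CPM and the non-hair epidermis marker 7.34 and 12.2 CPM. Phloem markers held 65.8 and 43.0 CPM, xylem markers 204 and 188 CPM and meristem markers 37.8 and 39.8 CPM. Of all 23 cell type markers, 1 rose and 12 fell in *stop1* +Al, and their part in the falls was not tested.

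In *stop1* ++Fe, 6 genes rose (8.33%) and 18 fell (25%), beside 9.16% and 5.59% of all genes, with a median of -0.39 against -0.03. The falls were led by AT3G61400 (-2.51 ± 0.33, adjusted p = 5.4e-05) and AT5G27920. In *stop1* -Pi_pH5, 1 gene rose (1.39%) and 5 fell (6.94%), beside 0.724% and 0.875%. In *stop1* -Pi_pH6, 0 rose and 3 fell, beside 0.474% and 0.523%, and in *stop1* +Pi_pH5, 0 rose and 3 fell, beside 0.00978% and 0.0685%. The genes that fell were AT2G16660, AT4G00910 and *SLAH1* (-1.31 ± 0.28, adjusted p = 0.027) in -Pi_pH6, and AT5G27920, AT5G35940 (-1.65 ± 0.24, adjusted p = 0.0095) and AT2G16660 in +Pi_pH5. Rises at an unadjusted p under 0.05 numbered 3 in -Pi_pH6 (4.01% of all genes) and 2 in +Pi_pH5 (2.45% of all genes), and edgeR and DESeq2 called 0 rises in either. Without single *stop1* libraries of the compared conditions the totals went as low as 0 in -Pi_pH6 (without +Pi_pH6 replicate 2 or -Pi_pH6 replicate 2), 0 in +Pi_pH5 and 3 in -Pi_pH5 (both without +Pi_pH6 replicate 2) and 15 in ++Fe (without +Pi_pH6 replicate 2 or ++Fe replicate 1), while edgeR's likelihood ratio test and DESeq2 called 13 and 14 genes in -Pi_pH5. With the labels of *stop1* +Pi_pH6 and +Pi_pH5 exchanged, the rises and falls were 7 and 27 in +Al, 9 and 15 in ++Fe, 0 and 0 in -Pi_pH5, 1 and 2 in -Pi_pH6 and 3 and 0 in +Pi_pH5.

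**Figure D3:**
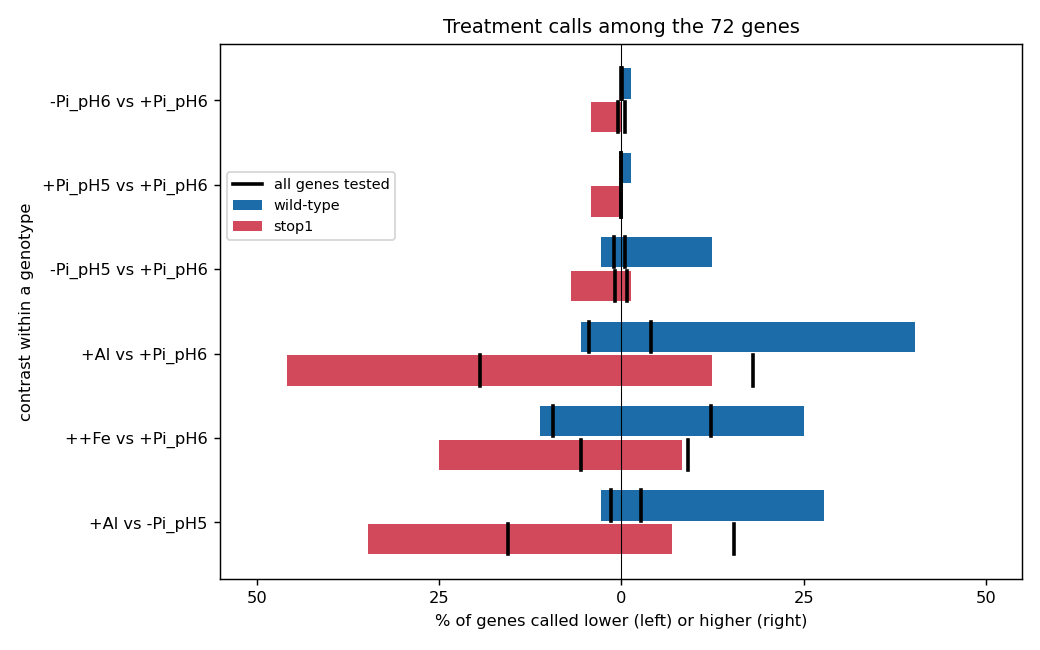
Percentage of the 72 genes (bars) and of all 20450 genes (black marks) called higher (right) or lower (left) by limma at an adjusted p under 0.05 in each of the 12 treatment contrasts within a genotype. In wild-type +Al 40.3% of the 72 genes rose and 5.56% fell, and in *stop1* +Al 12.5% rose and 45.8% fell. The rule used the same libraries, so the bars are a description.

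Set side by side gene by gene, the 2 genotypes gave different calls in +Al for many of the 72 genes. Of these, 7 rose in both genotypes (9.72%, beside 3.06% of all genes) and 4 fell in both (5.56% beside 3.81%). A rise in wild-type with a fall in *stop1* was called for 11 (15.3% beside 0.215%), and a rise in wild-type alone for 11 (15.3% beside 0.822%). In *stop1* alone 18 fell (25% beside 15.4%) and 2 rose (2.78% beside 15%), and 19 were not called in either genotype (26.4% beside 61.2%). The rule used the libraries of both genotypes in +Al and in +Pi_pH6, so these shares are a description. The 11 genes with opposite calls were AT1G51830, *ABCB15*, AT5G27920, *DGR2*, AT4G30670, AT5G02480, *EXO70H2*, AT4G18205, *GDH1*, AT1G51850 and AT1G13540. A test of the difference between the 2 responses would use the same genotype contrasts as the rule and was not made, so a call in one genotype alone is not shown to differ from the other genotype. Over the 5 treatments against +Pi_pH6, 30 of the 72 genes rose at least once in wild-type (41.7%, beside 13.9% of all genes) and 11 fell (15.3% beside 11.8%). In *stop1*, 12 rose (16.7% beside 21.1%) and 35 fell (48.6% beside 21.3%). The genes called in none of the 5 numbered 31 in wild-type (43.1% beside 74.5%) and 28 in *stop1* (38.9% beside 58.2%). The 5 treatment contrasts of a genotype share the same control libraries.

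**Figure D4:**
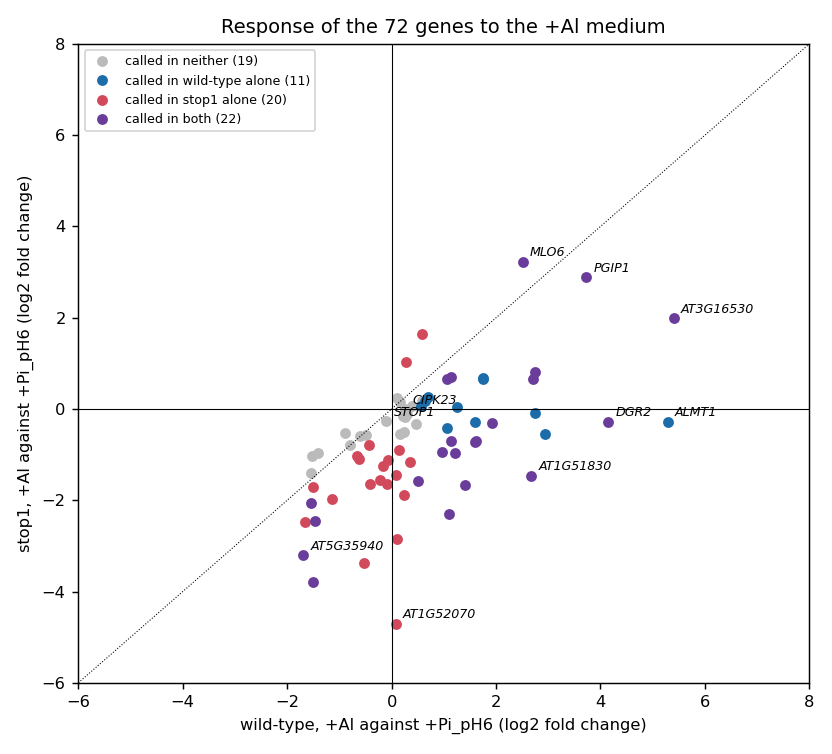
Log2 fold change in +Al against +Pi_pH6 in *stop1* (vertical axis) and in wild-type (horizontal axis) for the 72 genes, 1 point per gene, coloured by the genotype in which it passed the limma test, with a dotted line where both responses are equal. The 11 genes with opposite calls, such as *DGR2* (4.15 and -0.28) and AT1G51830 (2.68 and -1.46), lie at the lower right, and *MLO6* (2.51 and 3.23) at the upper right.

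Of the 72 genes, 6 belong to a list of genes known to respond to low oxygen. *HRA1* encodes a transcription factor of the hypoxia response and *PCO2* a cysteine oxidase of the oxygen-sensing pathway, and AT4G24110, AT4G10270, AT4G10265 and AT1G33055 are known as hypoxia-responsive transcripts. The list of 21 such genes was written after the 72 genes had been seen, and these 6 made up 28.6% of it. *GDH1*, for which the study cites a report of activation by STOP1 under hypoxia, was not on the list. The rest of the list did not meet the rule, among them *ADH1*, *PDC1* and *HB1*. These were higher in *stop1* in -Pi_pH5, by 0.41, 0.33 and 0.51 in log2(CPM + 1), and lower in the other media. *HRA1* held in wild-type 24.9 and 62.2 CPM under +Pi_pH6, 13.99 and 74.7 under -Pi_pH6, 87.3 and 77.9 under +Pi_pH5, 75.6 and 56.6 under -Pi_pH5, 20.9 and 20.5 under +Al and 30.1 and 32.3 under ++Fe. In *stop1* it held 17.5 and 15.1 CPM under +Pi_pH6, 18.4 and 21.1 under -Pi_pH6, 22.7 and 50.6 under +Pi_pH5, 18.5 and 15.1 under -Pi_pH5, 12.1 and 9.90 under +Al and 13.4 and 16.1 under ++Fe. The 2 wild-type replicates of +Pi_pH6 and of -Pi_pH6, and the 2 *stop1* replicates of +Pi_pH5, were far apart. *PCO2* repeated this, with 22.4 and 85.6 CPM in wild-type +Pi_pH6, 27.3 and 58.4 CPM in wild-type -Pi_pH6 and 14.4 and 61.1 CPM in *stop1* +Pi_pH5. AT4G24110 showed 19.8 and 92.1 CPM, 22.2 and 112 CPM and 14.5 and 62.6 CPM in the same conditions.

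Expressed as replicate 2 minus replicate 1 in log2(CPM + 1), the median of these 6 genes was 2.02 in wild-type +Pi_pH6, 1.90 in wild-type -Pi_pH6 and 1.97 in *stop1* +Pi_pH5, whereas the median of the other 66 genes was 0.16, 0.14 and 0.20. The median of the 6 genes was positive in every condition except wild-type +Pi_pH5 (-0.15). The sum over the list of 21 genes was 2475 and 8632 CPM in wild-type +Pi_pH6, 4218 and 8973 CPM in wild-type -Pi_pH6 and 1061 and 5459 CPM in *stop1* +Pi_pH5. Replicates also lay apart in other conditions, for example at 2242 and 5332 CPM in wild-type +Al, 992 and 2404 CPM in wild-type ++Fe and 3469 and 6547 CPM in *stop1* -Pi_pH5. *ADH1* weighs heavily in the sum, with a wild-type median of 1725 CPM beside 4460 CPM for the list. Over all conditions the sum ran from 992 to 8973 CPM in wild-type and from 583 to 6547 CPM in *stop1*. Without wild-type +Pi_pH6 replicate 2, the library with the highest sum of that medium, 53 genes in all met the rule, and 20 of the 72 no longer did, among them AT4G10265, AT1G33055, AT4G10270, AT4G24110 and *PCO2*. Without wild-type -Pi_pH6 replicate 2, 62 genes met the rule, and 13 of the 72 no longer did, all 6 low-oxygen genes among them. Without wild-type +Al replicate 2, 4 of the 6 left the set, and without *stop1* +Pi_pH5 replicate 1, 3 did. Membership of each of the 6 genes thus depended on at least 1 single library. Among the treatment contrasts, AT4G10270 fell in *stop1* +Al (-1.72 ± 0.54, adjusted p = 0.019) and also, as given above, in wild-type +Al against -Pi_pH5.

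**Figure D5:**
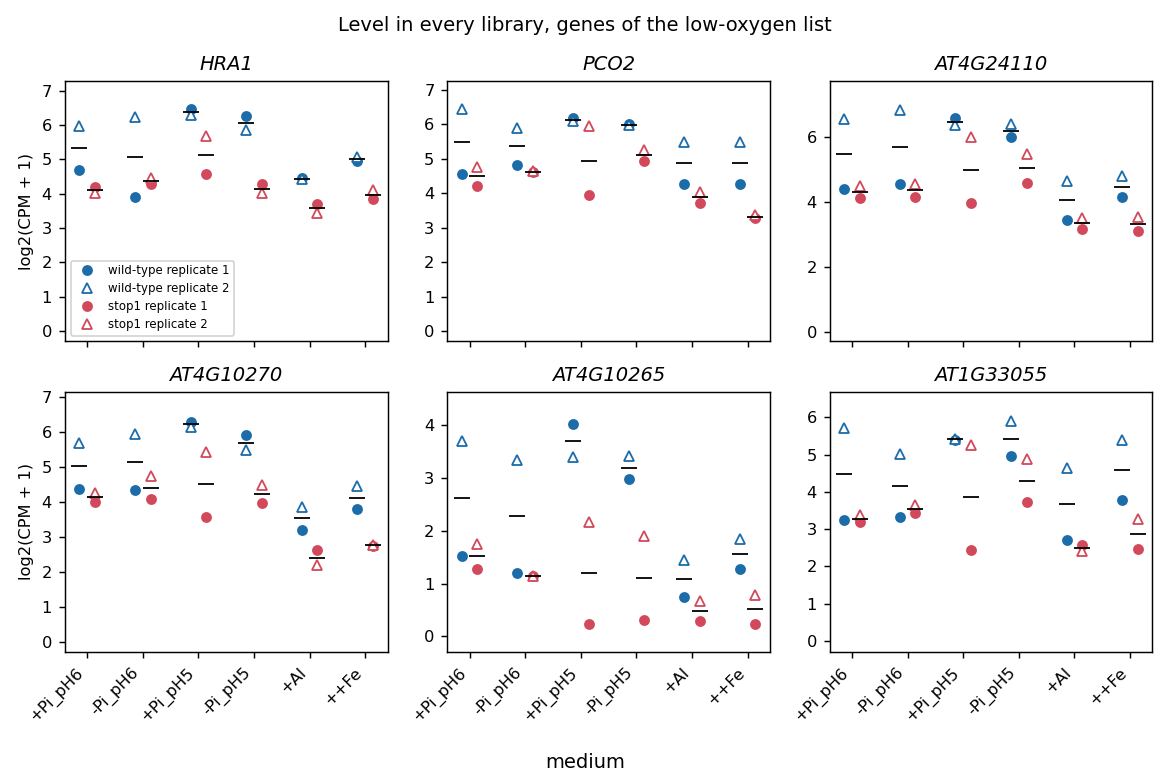
Level as log2(CPM + 1) of the 6 genes of the low-oxygen list among the 72 in each wild-type (blue) and *stop1* (red) library of the 6 media, with circles for replicate 1, triangles for replicate 2 and dashes for their mean. The 2 wild-type replicates of +Pi_pH6 and of -Pi_pH6 and the 2 *stop1* replicates of +Pi_pH5 lie apart in each panel, for example at 24.9 and 62.2 CPM for *HRA1* in wild-type +Pi_pH6.

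Other single libraries also decided some memberships. Leaving out each of the 24 libraries in turn gave between 53 and 85 genes that met the rule, and 37 of the 72 met it whichever library was left out. By words in their annotation, 4 of the 72 genes were described as transport (5.56%, against 2.55% of all annotated genes in the table), 4 as cell wall (5.56% against 1.56%), 3 as transcription factors (4.17% against 5.55%), 3 as redox enzymes (4.17% against 4.08%) and 50 as none of the named groups (69.4% against 80.1%). The words missed *SLAH1*, *SLAH3*, *NRAMP1*, *UPS2* and AT2G16660, which were placed in none of the named groups, so the transport count is too low. They also left out the laccase *LAC7* and the oxygenases AT3G61400 and AT1G12010, so the redox count may be too low as well. Their positions were spread over the genome, with 21 genes on chromosome 1, 8 on chromosome 2, 12 on chromosome 3, 15 on chromosome 4 and 16 on chromosome 5. While 69 of the genes were protein coding, 3 were not. One of these, AT2G01010, is an 18S ribosomal RNA gene that shares 94.3% of its 50-base stretches with other loci, so that its reads cannot be assigned to 1 locus, and the precursor locus AT3G06345 shares 88.3%. Shares over 5% were also found for AT3G47675 (23.7%), AT4G18205 (8.18%) and AT1G64563 (6.24%). In all, 23 of the 72 genes overlap another annotated gene, 20 of them one on the opposite strand, including *PGIP1*, *GDH1*, *RAE1*, *MLO6* and *NRAMP1*. The library kit marked the strand, but the strand setting used in counting is not given in the sources used here, so reads of such partners may not be separable.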

How the data were processed

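RNA-seq libraries of wild-type and *stop1* roots in 6 media, 2 biological replicates each, were assigned to conditions from the deposited labels. The values are a normalized signal, which the authors made by trimming reads, aligning them to TAIR10 with HISAT2 2.1.0, counting on genes with HTSeq 0.11.2 and scaling to CPM with TMM factors in edgeR 3.28.0, and which were deposited for 20450 genes. Whole reads were recovered for 100% of the values, within 0.01 of a whole number, by dividing by the worth of 1 read. The low-count filter and the strand setting are not given in the sources used here. Libraries held 17027929 to 30516150 reads, and 3 reads of a gene in a library served as the floor of detection, which covers counting error only.

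Treatment contrasts within a genotype were tested with limma 3.58.1 (R 4.3.3) on log2(CPM + 1) in 1 fit of all 24 libraries with a mean-variance trend, two-sided, and p-values were adjusted by Benjamini and Hochberg over all 20450 genes, with 0.05 as the threshold. Values after ± are standard errors of log2 fold changes, which are on the log2(CPM + 1) scale and understate changes of scarce genes. Replicates were stated to be biological, from pooled seedlings, and the p-values measure only the spread between these samples. The procedure was tested on simulated data.

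The rule for the 72 genes, the gene lists (STOP1-associated, phosphate starvation, photosynthesis, cell type markers, low oxygen) and the tests were chosen with earlier results of these data known. Named genes are *STOP1*, members the study names, the 24 with the most negative mean difference, those next to the threshold, the 2 most significant in each direction per contrast, list members, and others named after their values were seen. Positions, annotations and upstream sequences come from the RefSeq annotation of TAIR10.1, in which all 72 genes were matched. A gene of the 16-gene list, *PGIP2*, was not analysed here. The alternatives were edgeR 4.0.16 and DESeq2 1.42.0 on recovered reads, a pseudocount of 0.1, a filter at a mean of 1 CPM, library size only, only the compared libraries, a replicate block, other thresholds, exchanged labels and leaving out each library. Tabulation and plotting used Python 3.11.15 (numpy 2.4.6, pandas 2.3.3, matplotlib 3.10.9).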

Additional observations from a re-analysis of the deposited data

Results flagged for a closer look

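Of the 72 genes, 12 were called in opposite directions in the 2 genotypes by limma under the same treatment contrast. A rise in wild-type with a fall in *stop1* in +Al against +Pi_pH6 made up 11 of them (15.3% of the 72 genes, beside 0.215% of all genes). For the other contrasts, and for the order of libraries given next, the share over all genes was not counted. In each case both wild-type libraries of the treatment lay above both wild-type control libraries, and both *stop1* libraries lay below both *stop1* control libraries. The difference between the genotypes was not tested, because the rule that chose the genes had used it. All values are log2 fold changes on the log2(CPM + 1) scale, with the labels of *stop1* +Pi_pH6 and +Pi_pH5 as deposited.

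In +Al against +Pi_pH6, AT1G51830 changed by 2.68 in wild-type and -1.46 in *stop1*, *ABCB15* by 1.40 and -1.66, AT5G27920 by 1.21 and -0.97, and *DGR2* by 4.15 and -0.28. AT4G30670 changed by 1.09 in wild-type and -2.29 in *stop1*, AT5G02480 by 0.97 and -0.95, *EXO70H2* by 1.60 and -0.73, and AT4G18205 by 1.61 and -0.71. *GDH1* changed by 1.92 in wild-type and -0.31 in *stop1*, AT1G51850 by 0.51 and -1.58, and AT1G13540 by 1.13 and -0.71. The limma adjusted p in *stop1* +Al was near the threshold for *DGR2* (0.049), AT4G18205 (0.044) and *GDH1* (0.035). In ++Fe against +Pi_pH6, AT1G51830 changed by 0.71 and -0.83. In +Al against -Pi_pH5, at equal pH and phosphate, AT1G51830 changed by 1.575 and -1.55, *DGR2* by 2.37 and -0.76, and AT2G16660 by 0.96 and -0.83.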

How the results depend on the processing

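Counts below are the genes called among the 72, and causes of changes were not tested. edgeR's likelihood ratio test and DESeq2 each called 2 genes in wild-type -Pi_pH6, 3 in wild-type +Pi_pH5 (1 each by limma), 5 each in *stop1* -Pi_pH6 (3 by limma), and 13 and 14 in *stop1* -Pi_pH5 (6 by limma). With only the libraries of the compared conditions, which leaves few degrees of freedom, the counts were 0, 0, 4, 17 and 13 in wild-type -Pi_pH6, +Pi_pH5, -Pi_pH5, +Al and +Al against -Pi_pH5, and 6 and 0 in *stop1* -Pi_pH6 and +Pi_pH5. Exchanging the labels of *stop1* +Pi_pH6 and +Pi_pH5 left 0 calls in *stop1* -Pi_pH5. A threshold of -1 left 28 genes in place of 72, and a pseudocount of 0.1 gave 100. Of 108 values under these and the other alternatives, 89 stayed within 1.5 times the reported count.

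The main fit did not treat replicate numbers as pairs, and a shared effect of the replicate number was not tested. Deviations of same-numbered libraries correlated from -0.379 to 0.524 over 66 pairs of conditions, with a median of 0.126 and 38 pairs above 0.1. Between wild-type and *stop1* in the same medium, the values ran from -0.301 in -Pi_pH6 to 0.407 in +Pi_pH6 and 0.442 in -Pi_pH5. A replicate block called 2 genes each in wild-type -Pi_pH6 and +Pi_pH5 and kept the other counts within 1.5 times.

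When single libraries were left out, 1 to 2 calls were made in wild-type -Pi_pH6, 1 to 2 in +Pi_pH5, 3 to 12 in -Pi_pH5, 24 to 33 in +Al, 16 to 28 in ++Fe and 14 to 23 in +Al against -Pi_pH5. In *stop1* the ranges were 0 to 4, 0 to 3, 3 to 8, 30 to 43, 15 to 25 and 23 to 31, and 53 to 85 genes met the rule. The counts that moved by over 1.5 times were 2 in wild-type -Pi_pH6 without either wild-type +Al library, 2 in wild-type +Pi_pH5 without wild-type +Pi_pH6 replicate 1, 3 or 4 in wild-type -Pi_pH5 without wild-type +Pi_pH6 replicate 2 or either -Pi_pH5 library, 16 in wild-type ++Fe without wild-type +Pi_pH6 replicate 2, 14 in wild-type +Al against -Pi_pH5 without wild-type -Pi_pH5 replicate 1, 0 or 1 in *stop1* -Pi_pH6 without any of its compared libraries, 0 or 1 in *stop1* +Pi_pH5 without either *stop1* +Pi_pH6 library or +Pi_pH5 replicate 1, 3 in *stop1* -Pi_pH5 without *stop1* +Pi_pH6 replicate 2 or -Pi_pH5 replicate 2, and 15 in *stop1* ++Fe without *stop1* +Pi_pH6 replicate 2 or ++Fe replicate 1. At 17027929 reads or more per library, 8 of the 72 genes still fell to 3 reads or fewer in both *stop1* libraries of at least 1 medium.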
